A study of Homo sapiens with 24 samples.

Results

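The genes described here are 43 interferon-stimulated genes, a set named for its known induction by interferons. Each was taken by symbol from a table of read counts for 23354 genes, in which all 43 had a row, and the rule by name uses no measured value. The table came from RNA sequencing of MV4-11 and KG-1a, lines derived from acute myeloid leukemia (AML) and labelled as wild type, that were left untreated or treated with the nucleoside analogs 8-chloro-adenosine (8CA) or 8-amino-adenosine (8AA). The drugs differ in what replaces a hydrogen on one carbon of the adenine base, which is chlorine in 8CA and an amino group in 8AA. Each drug was used at 1 µM for 8 h or 24 h, and each line also had an untreated group at both times, whose hours were given by the sample titles alone. The 12 groups held 2 libraries each, named A and B, which made 24 libraries. The labels did not say whether A and B were separate cultures, so the p-values below measure only the spread between these libraries. Both are established lines. The RNA was from whole cultures, in which fewer cells of a type and less RNA per cell cannot be told apart.

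Type I interferons bind the receptor subunits IFNAR1 and IFNAR2, whose kinases JAK1 and TYK2 phosphorylate STAT proteins, STAT2 among them. STAT2 joins IRF9 in a complex that binds the interferon-stimulated response element (ISRE) in the promoters of many of their target genes, while type II interferon acts mainly through the gamma-activated site (GAS). The induced proteins sense foreign RNA, block viral entry and translation, attach the ubiquitin-like protein ISG15 to other proteins, or feed back on the pathway itself. Some of these genes can also be induced without interferon, by IRF proteins that are activated when RNA or DNA sensors are engaged.

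The libraries held 18633963 to 24520078 counted reads. The lines carried their labels in part. MV4-11 libraries expressed FLT3, MEIS1, LYZ, SPI1 and CD33, and KG-1a libraries expressed CD34 and PTPRC. However, CD33, MPO, LYZ and FLT3 were at or under 2.25 CPM (counts scaled to the library total) in KG-1a and MEIS1 had no reads there. HOXA9, also checked as an MV4-11 marker, went the other way, at 6.87 to 9.01 CPM in MV4-11 and 23.2 to 28.9 CPM in KG-1a. The T cell markers CD3D and CD3E were present in KG-1a, at 181 to 273 CPM and 22.9 to 81.7 CPM, and had no reads in MV4-11. B cell, erythroid, epithelial and fibroblast markers were at or near 0 in both lines. The pair of libraries that differed most was KG-1a 8AA at 24 h, whose counts differed by 12.3 times the sampling variance per gene, against 1.43 to 5.20 in the other 11 groups. Counts of calls in that group are therefore also given without replicate A or B.

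Promoter sequence was a feature of the members that the choice by name did not use. RefSeq promoter windows, 250 bases before to 50 bases after a gene's start in GRCh38.p14, were at hand for 35 of the 43 members. The ISRE was searched for as the letters GAAA, any 2 bases and GAAA again, and the GAS as TTCNNNGAA, on both strands, with overlapping matches allowed. The ISRE letters stood in 22 of the 35 member windows (62.9%) and in 3.57% of all 35116 windows, and the GAS letters stood in 10 of 35 (28.6%) and in 7.66% of all windows. Windows of OAS2, OASL, IFIT2, MX2, USP18, IFITM2, IRF7 and TRIM22 were not used here. The stretches below run from 20 bases before the first match to at most 20 bases after the last, end before the gene's start, and are written 5′ to 3′ on the gene's strand with the ISRE letters in capitals, so that a match on the other strand reads TTTC, 2 bases, TTTC. They are shown for 6 members with almost no reads in MV4-11 (IFIT1, IFIT3, IFIT5, IFI44, DDX60 and EPSTI1), for 3 that rose with a drug in both lines (IFIH1, SAMD9 and PARP14) and for ISG15, which was not called with either drug.
IFIT1, chr10:89392487-89392549, plus strand: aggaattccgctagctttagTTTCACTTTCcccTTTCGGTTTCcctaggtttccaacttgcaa
IFIT3, chr10:89327821-89327904, plus strand: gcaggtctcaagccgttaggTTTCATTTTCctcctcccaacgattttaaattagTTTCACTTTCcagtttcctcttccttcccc
IFIT5, chr10:89414503-89414567, plus strand: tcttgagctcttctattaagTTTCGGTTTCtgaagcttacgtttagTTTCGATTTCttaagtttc
IFI44, chr1:78649751-78649788, plus strand: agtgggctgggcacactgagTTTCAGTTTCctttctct
DDX60, chr4:168318776-168318860, minus strand: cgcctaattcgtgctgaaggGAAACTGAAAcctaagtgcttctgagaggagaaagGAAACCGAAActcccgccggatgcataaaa
EPSTI1, chr13:42992262-42992311, minus strand: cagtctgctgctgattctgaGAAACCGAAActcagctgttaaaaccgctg
IFIH1, chr2:162318685-162318863, minus strand: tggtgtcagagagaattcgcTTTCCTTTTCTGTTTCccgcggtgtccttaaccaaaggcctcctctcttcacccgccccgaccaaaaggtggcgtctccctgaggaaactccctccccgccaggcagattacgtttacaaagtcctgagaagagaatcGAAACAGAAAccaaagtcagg
SAMD9, chr7:93118086-93118135, minus strand: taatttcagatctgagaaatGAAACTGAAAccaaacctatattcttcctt
PARP14, chr3:122680790-122680838, plus strand: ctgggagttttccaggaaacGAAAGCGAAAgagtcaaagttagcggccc
ISG15, chr1:1013364-1013419, plus strand: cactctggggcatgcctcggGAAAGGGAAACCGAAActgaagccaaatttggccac

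The windows of IFIT1, IFIT3, DDX60 and ISG15 each held 2 matches to the ISRE letters, those of IFIH1 and IFIT5 held 3, and the others held 1. The last match of IFIT5 begins 4 bases before the gene's start and is not in the printed stretch. Of the 10 members with a window that could be tested in KG-1a but not in MV4-11, 9 held the ISRE letters, and 12 of the 23 tested in both lines did. These sets were formed by the filter on read counts and hold few windows, and a link between the letters and the level was not tested. No match to the ISRE letters was found in the windows of DDX58, OAS1, IFI35, HERC6, IRF1, IRF9, STAT2, PARP9, RSAD2, CMPK2, SAMD9L, XAF1 and SP110, which says only that these letters are not within those 300 bases. Among them, the windows of OAS1, IFI35, IRF1 and IRF9 held the GAS letters. A match is a description of the letters and not a measured site, since no binding was assayed.

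The level of the members in untreated cells set what could be measured in each line. After a filter on low counts, 31 members could be tested in MV4-11, 39 in KG-1a, 28 in both and 1, IRF9, in neither. The table gave IRF9, the DNA-binding partner of STAT2, 0 reads in all 24 libraries, which allows up to 3 reads per library. The row of the neighbouring gene RNF31 spans the whole IRF9 row on the same strand and held 899 to 1598 reads per library, and 4527 of the 23354 rows were at 0 throughout, and whether IRF9 was expressed could not be read from this table. The 11 members tested only in KG-1a were DDX60, OAS1, OAS3, IFIT1, IFIT2, IFIT3, IFIT5, IFI27, IFI44, IFI44L and EPSTI1, and none of them had more than 9 reads in any MV4-11 library, treated or not. OASL, MX2 and LGALS3BP were tested only in MV4-11.

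Per transcript length, membrane proteins led both lines. Untreated IFITM2 stood at 205 to 214 RPKM (counts scaled to gene length and library total) over 4 MV4-11 libraries and 244 to 256 RPKM over 4 KG-1a libraries. BST2, which tethers budding virions to the cell, was at 156 to 164 RPKM in MV4-11 and 79.02 to 86.3 RPKM in KG-1a. The widest gap among members tested in both lines was RSAD2 (viperin, an antiviral enzyme that makes a chain-terminating nucleotide), at 0.238 to 0.358 RPKM in MV4-11 and 61.8 to 74.4 RPKM in KG-1a. CMPK2, a nucleotide kinase encoded next to RSAD2, was at 0.771 to 0.829 and 31.5 to 33.7 RPKM. The ranges of the lines did not overlap for either gene of this pair.

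The IFIT proteins, which bind foreign RNA ends and block translation, were near 0 in one line and measured in the other. Over 12 libraries, IFIT1 held 118 to 311 reads in KG-1a and 0 to 3 in MV4-11. IFIT5 held 375 to 513 reads in KG-1a and 0 or 1 in MV4-11, and OAS3, which makes the 2′-5′ oligoadenylates that activate RNase L, held 439 to 531 and 0 to 3. STAT2, XAF1, TRIM22, BST2 and IRF7 went the other way: untreated STAT2 was at 14.6 to 15.5 RPKM in MV4-11 and 6.11 to 7.07 RPKM in KG-1a. In a fit of all 24 libraries, untreated MV4-11 and untreated KG-1a differed in 27 of the 28 members tested in both lines, 5 higher in MV4-11 and 22 lower (edgeR's quasi-likelihood test, Benjamini-Hochberg adjustment over 14055 genes). IFI35 was the member not called. Of all genes in that fit, 87.4% were called, so the number of members called is near that of any genes, and only the direction is uneven, as 43.1% of all genes were higher in MV4-11 and 44.3% lower.

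**Figure D1:**
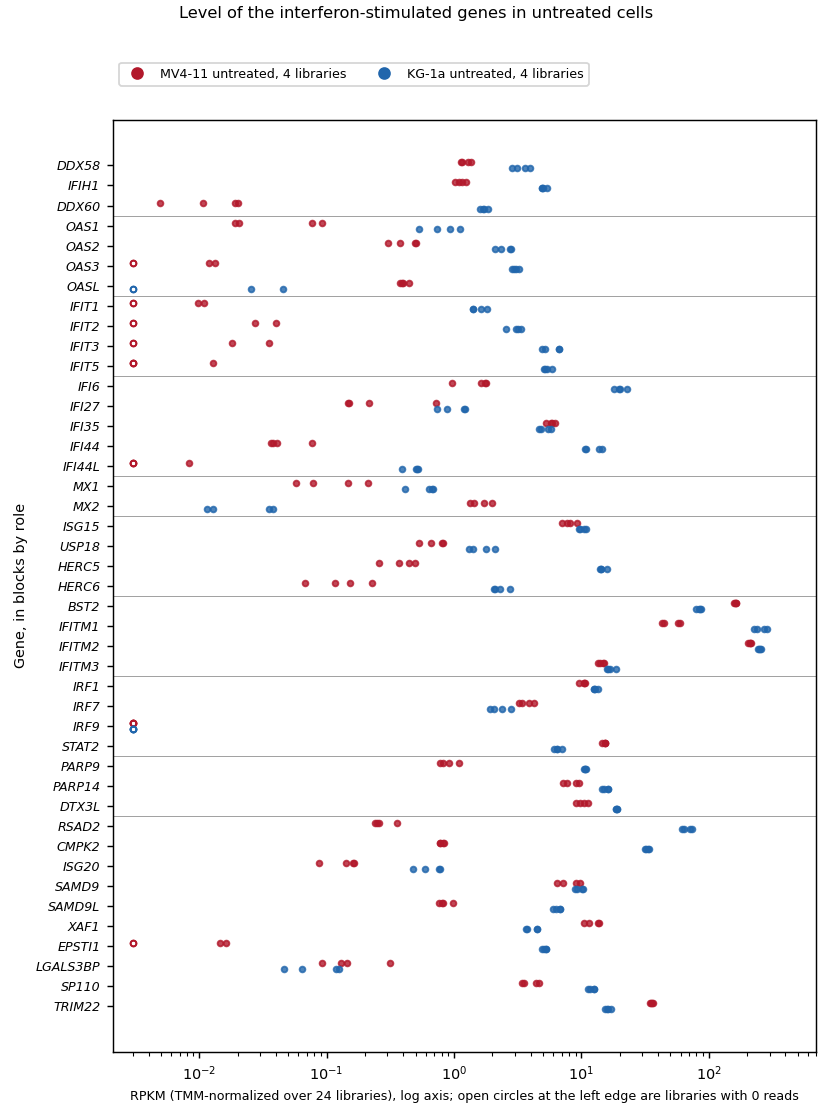
Level of each of the 43 genes in the 4 untreated libraries of MV4-11 (red) and KG-1a (blue), as RPKM on a log axis, in blocks by role; an open circle at the left edge is a library with 0 reads. The IFIT genes, OAS3, IFI44, IFI44L and EPSTI1 lie near the left edge in MV4-11 and to the right in KG-1a, while STAT2, XAF1, TRIM22, BST2, IRF7, MX2 and OASL lie further right in MV4-11.

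The interferon genes themselves had few reads. Of 21 interferon genes in the table, 15 had no read in any of the 24 libraries and none passed the filter on low counts. IFNB1 held 27 reads in all, at most 9 in 1 library (KG-1a 8CA at 24 h, replicate A), and IFNG and IFNL1 held 32 and 38 reads in all, at most 6 in 1 library. All 3 had reads in KG-1a alone and 0 in every MV4-11 library. A change with either drug was not tested, since the filter removed them. The receptor genes IFNAR1, IFNGR1, IFNGR2 and IFNAR2 were measured in both lines, and their log2 fold changes with a drug lay within -0.14 and 0.28.

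Each drug was then set against untreated cells of its own line and time, which asks whether these nucleoside analogs move the interferon-stimulated genes. Tests were edgeR's quasi-likelihood tests with Benjamini-Hochberg adjustment across every gene tested in a line, called at 0.05, and levels are CPM after TMM normalization within a line. 8CA and 8AA share their untreated libraries at each time, so their results are not independent of each other. In MV4-11, 8CA at 8 h raised 4 of the 31 tested members and lowered none (12 at an unadjusted p under 0.05), where 10.4% of all 12800 genes were called, 4.58% higher and 5.77% lower. The 4 were SAMD9, SAMD9L, STAT2 and TRIM22. Over 13 alternatives the log2 fold changes of SAMD9, SAMD9L and STAT2 ran from 0.25 to 0.38, 0.53 to 0.71 and 0.32 to 0.40. Fits without 1 of the libraries compared leave 1 in a group. They called fewer of all genes, and without untreated replicate A also fewer members. The member count was 9 with scaling by library size only or with the replicate letter as a block. It was 8 in the fit of all 24 libraries and 7 with no filter on low counts. Of all genes, 1390 of 12800 were called with library size only and 1976 of 12800 with the block. The number of all genes called in the fit of all 24 libraries was not taken. With no filter 1748 of 17385 were called, against 1325 of 12800 in the main fit. 8AA at 8 h raised 14 and lowered none (all genes 29.2% called, 13.6% higher). At 24 h, 8CA raised 9 and lowered 1 (all genes 43.9% called, 21.2% higher) and 8AA raised 11 and lowered 1 (all genes 29.1% called, 13.9% higher). The median log2 fold change of the members was 0.19, 0.33, 0.28 and 0.26 in these comparisons, while that of all genes was within 0.01 of 0 in each.

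In KG-1a, 8CA at 8 h lowered 1 of the 39 tested members, CMPK2, and raised none (7 at an unadjusted p under 0.05), where 0.881% of 12711 genes were called, 0.7% of all genes higher. That call was lost whichever of the 4 libraries was left out, each leaving 0. 8AA at 8 h raised 11 and lowered 2 (all genes 34.7% called, 16.7% higher). At 24 h, 8CA raised 15 and lowered 9 (all genes 47.4% called, 23.4% higher and 24% lower), and 8AA raised 19 and lowered 5 (all genes 51.9% called, 25.4% higher and 26.6% lower). Without replicate A or B of the 8AA group at 24 h the counts were 17 raised with 7 lowered and 20 raised with 4 lowered. The medians were -0.0089, 0.12, 0.083 and 0.20, and the median of all genes stayed within 0.0134 of 0. Scaling by library size alone set the median of all genes at 0.108 in the comparison with 8AA at 24 h, and the count there became 24 raised and 3 lowered. With that scaling 7012 of 12711 genes were called for 8AA at 24 h, and 6600 with TMM. In that same group the T cell marker CD3E was at 81.7 and 69.8 CPM against 37.9 and 38.2 CPM untreated, and CD3D was at 267 and 216 against 260.1 and 266. CD34 was at 656 and 584 CPM with 8AA and 349 and 339.7 with 8CA against 424 and 432 untreated, and CD3D with 8CA was at 191 and 181. The part of these markers in the results was not tested.

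**Figure D2:**
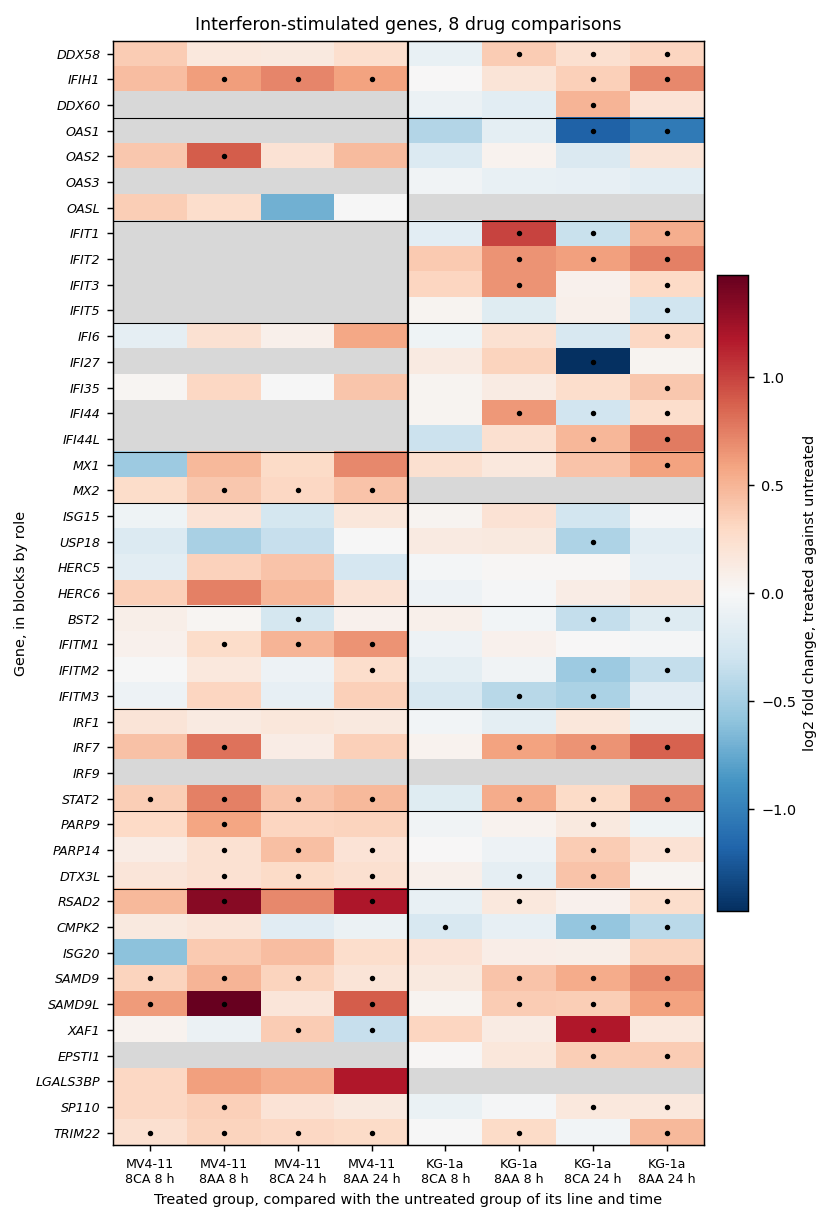
log2 fold change of each gene with a drug against the untreated group of its line and time, in 8 comparisons of 2 libraries against 2; a dot marks a call and grey a gene not tested. MV4-11 columns hold mostly red dots, 14 of them with 8AA at 8 h, and the KG-1a 8CA column at 8 h holds 1 dot, while at 24 h KG-1a shows both red and blue dots.

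Among the transcription factors, STAT2 moved most steadily. In MV4-11 it was at 70.2 and 67.3 CPM untreated, 86.7 and 90.4 with 8CA and 116 and 115 under 8AA at 8 h. By 24 h it stood at 71.2 and 71.4 CPM untreated, 93.02 and 97.9 with 8CA and 101 and 97.2 under 8AA. All 8 treated libraries lay above all 4 untreated ones, and 8AA at 8 h was highest. The log2 fold changes at 8 h were 0.37 ± 0.05 (SE) with 8CA (edgeR adjusted p = 0.000446) and 0.75 ± 0.05 with 8AA (edgeR adjusted p = 1.24e-07), and at 24 h 0.42 and 0.48 (edgeR adjusted p = 7.44e-06 and 7.71e-06). In KG-1a it was at 29.96 and 31.2 CPM untreated, 26.4 and 27.5 with 8CA and 43.8 and 45.5 under 8AA at 8 h. At 24 h the KG-1a values were 31.8 and 34.97 CPM, 39.99 and 41.3 with 8CA and 55.1 and 55.6 under 8AA. The 8CA libraries thus lay just below the untreated ones at 8 h and above them at 24 h, while 8AA was above at both times. 8AA gave log2 fold changes of 0.55 ± 0.06 and 0.73 ± 0.06 (edgeR adjusted p = 1.21e-05 and 1.51e-07), and 8CA gave -0.18 ± 0.07 at 8 h (edgeR adjusted p = 0.248) and 0.28 ± 0.06 at 24 h (edgeR adjusted p = 0.00201). The last call was lost without untreated replicate A (edgeR adjusted p = 0.0582).

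IRF7, the factor that amplifies interferon transcription, rose with 8AA at 8 h in both lines. MV4-11 values were 8.33 and 6.97 CPM untreated and 12.5 and 13.9 CPM with 8AA, with a log2 fold change of 0.80 ± 0.14 (edgeR adjusted p = 0.000422). 8CA libraries lay between at 9.97 and 10.7 CPM and were not called (edgeR adjusted p = 0.0645). At 24 h the MV4-11 groups were 7.36 and 9.12 CPM untreated, 7.82 and 9.97 with 8CA and 9.98 and 11.03 under 8AA, and neither drug was called. In KG-1a at 8 h, the values were 6.37 and 5.39 CPM untreated, 5.46 and 6.71 with 8CA and 9.22 and 8.45 under 8AA. Only the 8AA pair stood clear of the untreated pair there, with a log2 fold change of 0.59 ± 0.13 (edgeR adjusted p = 0.003), a call that was lost without untreated replicate B (edgeR adjusted p = 0.0513). At 24 h in KG-1a the untreated pair was at 4.44 and 4.79 CPM, 8CA at 7.79 and 6.704 and 8AA at 8.81 and 7.98, and both drugs were called higher, by 0.66 and 0.87 on the log2 scale (edgeR adjusted p = 0.00186 and 0.000106). IRF1, which drives both interferon and its targets, was called with neither drug in either line. It ranged from 36.97 to 45.8 CPM over the 12 MV4-11 libraries and from 45.7 to 61.4 CPM over the 12 KG-1a libraries, and the 8CA pair lay above the untreated pair in MV4-11 at both times and in KG-1a at 24 h without passing the test. The 8AA pair lay above it in MV4-11 at 24 h and below it in KG-1a at 8 h, also without a call.

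The RNA sensors are helicases that bind double-stranded RNA in the cytoplasm. IFIH1 (MDA5) was at 4.16 and 4.71 CPM in untreated MV4-11 at 8 h, 5.54 and 6.74 with 8CA and 6.44 and 7.18 under 8AA. The 24 h level was 4.497 and 5.06 CPM untreated, 7.86 and 7.86 with 8CA and 7.69 and 6.67 under 8AA. No treated library overlapped the untreated ones of its time. It was called with 8AA at 8 h (log2 fold change 0.62 ± 0.14, edgeR adjusted p = 0.00398), with 8CA at 24 h (0.72 ± 0.13, edgeR adjusted p = 0.00049) and with 8AA at 24 h (0.59 ± 0.14, edgeR adjusted p = 0.00478), the last not without 8AA replicate A (edgeR adjusted p = 0.0679). In KG-1a at 8 h it was at 21.3 and 21.3 CPM untreated, 22.1 and 20.5 with 8CA and 22.97 and 25.6 under 8AA, and no call was made. At 24 h KG-1a values stepped from 23.4 and 21.97 CPM untreated to 28.6 and 29.2 with 8CA and 35.99 and 38.3 under 8AA. These 3 pairs did not overlap, and the log2 fold changes were 0.35 ± 0.08 with 8CA and 0.71 ± 0.07 with 8AA (edgeR adjusted p = 0.00157 and 1.25e-06). DDX58 (RIG-I) was called higher in KG-1a with 8AA at both times and with 8CA at 24 h, by 0.23 to 0.37, and in no MV4-11 comparison. DDX60, chosen for mention after its values were seen, was called in KG-1a with 8CA at 24 h alone, at 25.1 and 25.4 CPM against 17.2 and 18.4 CPM untreated, a log2 fold change of 0.50 ± 0.10 (edgeR adjusted p = 0.00103).

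The OAS enzymes did not move as a group. OAS1 fell in KG-1a at 24 h with both drugs, from 2.92 and 2.45 CPM untreated to 0.98 and 1.39 with 8CA and 1.34 and 1.28 under 8AA, on 21 to 58 reads per library. The 8 h values were 1.37 and 1.89 CPM untreated, 1.33 and 1.09 with 8CA and 1.43 and 1.55 under 8AA. The untreated 24 h pair was thus the highest of the line and the treated pairs at 24 h lay within or below the range of the 8 h values. The log2 fold changes at 24 h were -1.19 ± 0.24 with 8CA and -1.04 ± 0.23 with 8AA (edgeR adjusted p = 0.000831 and 0.00151). OAS2 was called once, with 8AA at 8 h in MV4-11, where it was at 3.44 and 4.08 CPM against 1.81 and 2.26 CPM untreated (log2 fold change 0.89 ± 0.20, edgeR adjusted p = 0.00333). The 8CA pair at that time was at 3.103 and 2.21 CPM and overlapped the untreated pair, and the 24 h groups were at 2.998 and 2.94 CPM untreated, 3.67 and 3.195 with 8CA and 4.24 and 3.98 under 8AA. OAS3 in KG-1a had log2 fold changes of -0.15 to -0.06 and OASL in MV4-11 of -0.71 to 0.36, with no call.

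The IFIT genes were measured in KG-1a alone. IFIT1 was at 6.86 and 6.79 CPM untreated, 6.08 and 6.14 with 8CA and 13.9 and 13.3 under 8AA at 8 h. At 24 h it was at 8.02 and 8.87 CPM untreated, 6.53 and 6.903 with 8CA and 12.7 and 11.7 under 8AA. At both times the 8CA pair lay below the untreated pair and the 8AA pair above it. The log2 fold changes with 8AA were 1.00 ± 0.10 at 8 h and 0.53 ± 0.10 at 24 h (edgeR adjusted p = 3.06e-06 and 0.000315). With 8CA they were -0.16 ± 0.12 at 8 h, not called (edgeR adjusted p = 0.637), and -0.33 ± 0.11 at 24 h (edgeR adjusted p = 0.0228), a call lost with DESeq2 or without untreated replicate B or either 8CA replicate (adjusted p up to 0.153). IFIT1 therefore was called higher with one drug and lower with the other at 24 h, with the lower call the less stable. IFIT2 rose with both drugs at 24 h, from 12.3 and 11.6 CPM untreated to 18.6 and 17.8 with 8CA and 20.999 and 19.1 under 8AA (log2 fold changes 0.61 ± 0.10 and 0.75 ± 0.10, edgeR adjusted p = 0.00013 and 1.09e-05). At 8 h it was at 11.1 and 9.17 CPM untreated, 13.8 and 12.6 with 8CA and 15.8 and 16.2 under 8AA, and the 8AA pair was called (0.66 ± 0.10, edgeR adjusted p = 0.000146).

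IFIT3 was at 14.4 and 13.5 CPM untreated, 17.3 and 17.4 with 8CA and 23.7 and 20.5 under 8AA at 8 h, and the 8AA rise was called (0.66 ± 0.09, edgeR adjusted p = 5.38e-05). At 24 h the untreated pair had itself moved to 18.8 and 18.7 CPM, with 8CA at 19.8 and 19.2 and 8AA at 24.1 and 21.4. The 8AA call at 24 h (0.29 ± 0.09, edgeR adjusted p = 0.0121) was lost without either untreated replicate, without 8AA replicate A or in the fit of all 24 libraries (edgeR adjusted p = 0.105 at most). IFIT5 was the exception of the family: it was called once, lower, with 8AA at 24 h (log2 fold change -0.29 ± 0.08, edgeR adjusted p = 0.00778). The row of LIPA on the opposite strand overlaps all 4 IFIT rows, and whether the counting used strand was not stated. In addition, 8.40% of the 50-base words of IFIT2 occur in another gene.

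IFI44, a cytoplasmic protein induced by virus infection, also rose with 8AA and fell with 8CA at 24 h in KG-1a. It was at 28.3 and 27.8 CPM untreated, 28.98 and 28.5 with 8CA and 42.5 and 44.4 under 8AA at 8 h. By 24 h the untreated pair was at 38.2 and 36.4 CPM, 8CA at 30.5 and 30.8 and 8AA at 45.2 and 43.9. At 24 h the 3 pairs did not overlap, 8CA lowest and 8AA highest. 8AA gave log2 fold changes of 0.63 ± 0.06 and 0.26 ± 0.06 at 8 h and 24 h (edgeR adjusted p = 2e-06 and 0.00186), and 8CA gave -0.28 ± 0.06 at 24 h (edgeR adjusted p = 0.00152). Its neighbour IFI44L, on 40 to 117 reads, was called higher with both drugs at 24 h instead, at 3.83 and 4.92 CPM with 8CA and 4.88 and 5.71 under 8AA against 3.08 and 3.15 CPM untreated. Its 8 h values were 2.36 and 3.15 CPM untreated, 2.38 and 2.08 with 8CA and 2.87 and 3.66 under 8AA, and both drug pairs overlapped the untreated pair. The 8AA change was 0.76 ± 0.18 (edgeR adjusted p = 0.00272), and the 8CA change of 0.48 ± 0.19 (edgeR adjusted p = 0.0496) was at the threshold and was lost under 5 of 13 alternatives, among them leaving out either untreated replicate or 8CA replicate B (adjusted p up to 0.345).

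IFI27 had only 5 to 20 reads per KG-1a library. At 24 h it held 16 and 15 reads untreated, 7 and 5 with 8CA and 20 and 17 under 8AA, and at 8 h 9 and 12, 16 and 8 and 15 and 16. The 8CA pair at 24 h was the lowest, and its log2 fold change of -1.47 ± 0.42 was called (edgeR adjusted p = 0.0086), though not with DESeq2 or without 8CA replicate B (adjusted p up to 0.0663). IFI6, a mitochondrial antiviral protein, and IFI35 were called in KG-1a with 8AA at 24 h, by 0.30 and 0.40, and not in MV4-11. Of the dynamin-like GTPases, which trap viral nucleocapsids, MX2 was testable in MV4-11 only and MX1 was called in KG-1a with 8AA at 24 h (log2 fold change 0.59 ± 0.19, edgeR adjusted p = 0.0175). MX2 rose in MV4-11 from 11.5 and 10.8 CPM untreated to 14.3 and 14.9 with 8AA at 8 h, with 8CA at 13.03 and 13.9. By 24 h it stood at 15.8 and 13.95 CPM untreated, 18.3 and 18.5 with 8CA and 19.7 and 20.2 under 8AA. The treated pairs lay above the untreated pair at both times. The calls were 8AA at 8 h (0.40), 8CA at 24 h (0.31) and 8AA at 24 h (0.42), with edgeR adjusted p = 0.00418, 0.00762 and 0.00149, and the first was lost without untreated replicate B at 8 h (edgeR adjusted p = 0.0509) and the second without untreated replicate B at 24 h (edgeR adjusted p = 0.108).

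ISG15 and its conjugation machinery barely entered the calls. ISG15, USP18 (which removes ISG15 and dampens receptor signalling), and the ligases HERC5 and HERC6 gave no call in MV4-11 and 1 in KG-1a, USP18 with 8CA at 24 h (log2 fold change -0.45 ± 0.18, edgeR adjusted p = 0.0464), and 23.4% of the words of USP18 are shared with other genes, most with USP41. In MV4-11, USP18, HERC5 and HERC6 held only 18 to 35, 18 to 44 and 7 to 37 reads per library. With 8AA at 8 h there, the uncalled log2 fold changes of the group ran from -0.48 to 0.74, so a lack of calls is weak evidence of no change. ISG15 log2 fold changes lay between -0.27 and 0.21 over the 8 comparisons on 95 to 200 reads per library. HERC5 in KG-1a, at 953 to 1265 reads per library, lay between -0.12 and 0.02. The 95% interval of the change with 8AA at 24 h, the largest of the 4, ran from -0.24 to 0.01.

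Among the membrane factors, IFITM1, which blocks viral fusion at the cell surface, was at 30.8 and 29.7 CPM in untreated MV4-11 at 8 h, 30.9 and 32.4 with 8CA and 34.98 and 37.8 under 8AA. The 24 h level was 40.01 and 41.5 CPM untreated, 58.04 and 57.1 with 8CA and 59.3 and 69.2 under 8AA. Both drugs stood well clear of the untreated pair at 24 h (log2 fold changes 0.50 ± 0.07 and 0.66 ± 0.07, edgeR adjusted p = 4.32e-05 and 1.05e-05), and the smaller 8AA change at 8 h (0.27 ± 0.08, edgeR adjusted p = 0.0153) was lost without replicate B of either group (edgeR adjusted p = 0.121 at most). In KG-1a it gave no call, with log2 fold changes of -0.08 to 0.06. IFITM2 was called in opposite directions in the lines with 8AA at 24 h, and its 8CA pair lay below the untreated pair in both. In MV4-11 it was at 152 and 149.7 CPM untreated, 138 and 147 with 8CA and 172 and 189 under 8AA, and in KG-1a at 185 and 194, 133 and 129 and 163 and 133. It was called higher in MV4-11 with 8AA (0.26 ± 0.07, edgeR adjusted p = 0.00815), which was lost without replicate B of either group (edgeR adjusted p = 0.102 at most), and lower in KG-1a with 8CA and 8AA (-0.53 ± 0.07 and -0.35 ± 0.07, edgeR adjusted p = 2.09e-05 and 0.000645).

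At 8 h IFITM2 was at 145 and 149, 137 and 157 and 155 and 172 CPM in MV4-11 and at 191 and 187, 175 and 168 and 187 and 177 CPM in KG-1a for untreated, 8CA and 8AA, with no call. BST2 was called lower with 8CA at 24 h in both lines (-0.25 in MV4-11 and -0.36 in KG-1a) and with 8AA in KG-1a (-0.19), and IFITM3 lower in KG-1a with 8AA at 8 h (-0.40) and 8CA at 24 h (-0.46). The IFITM rows are uncertain as single genes, since 42.3% of the 50-base words of IFITM1, 15.8% of IFITM2 and 20.3% of IFITM3 occur in another gene, mostly one another.

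PARP9 and DTX3L are adjoining genes whose proteins form a complex, and PARP14 is a related ADP-ribosyltransferase on the same chromosome. In MV4-11 all 3 were called higher with 8AA at 8 h. PARP14 was at 70.3 and 75.2 CPM untreated, 78.4 and 78.4 with 8CA and 86.2 and 84.5 under 8AA at 8 h. At 24 h it was at 93.1 and 88.6, 124 and 123 and 106 and 103 CPM in the same order. The 8CA pair at 24 h was the highest, with a log2 fold change of 0.45 ± 0.05 against 0.20 ± 0.05 with 8AA (edgeR adjusted p = 3e-06 and 0.00483), and the 8AA call was lost without untreated replicate B or 8AA replicate A (edgeR adjusted p = 0.0801 at most). PARP9 at 8 h was at 6.32 and 6.004 CPM untreated, 6.78 and 8.35 with 8CA and 8.401 and 9.99 under 8AA (0.58 ± 0.14 with 8AA, edgeR adjusted p = 0.00518, lost without 8AA replicate B at 0.0713). Its 24 h values, 8.53 and 7.14 CPM untreated, 10.4 and 9.11 with 8CA and 9.41 and 10.2 under 8AA, gave no call. DTX3L was at 54.7 and 51.1, 59.98 and 60.1 and 64.1 and 59.2 CPM at 8 h and 58.6 and 63.6, 75.4 and 72.9 and 69.9 and 73.9 CPM at 24 h for untreated, 8CA and 8AA. It was called with 8AA at 8 h (0.22), 8CA at 24 h (0.28) and 8AA at 24 h (0.24), both 8AA calls being lost without 1 or another library, untreated replicate B or 8AA replicate A at 8 h and untreated replicate A or 8AA replicate B at 24 h (edgeR adjusted p = 0.141 and 0.106 at most).

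In KG-1a all 3 were called higher with 8CA at 24 h. DTX3L was at 111 and 112 CPM untreated, 149.9 and 148 with 8CA and 114 and 115 under 8AA, so that both treated pairs lay above the untreated pair and the 8CA pair by far the most. The log2 fold changes were 0.42 ± 0.04 (edgeR adjusted p = 1.84e-06) and 0.03 ± 0.04 (edgeR adjusted p = 0.53). At 8 h it was at 114 and 113, 118 and 121 and 105 and 102 CPM, and the lower 8AA value was called (-0.14 ± 0.04, edgeR adjusted p = 0.0256), a call that leaving out any of the 4 libraries, dropping the low-count filter or scaling by library size removed (edgeR adjusted p = 0.161 at most). PARP14 was at 168 and 169 CPM untreated, 216 and 219.6 with 8CA and 187 and 204 under 8AA at 24 h, rising with both (0.37 and 0.22, edgeR adjusted p = 2.53e-05 and 0.00225). PARP9 was at 88.2 and 88.9 CPM untreated, 96.6 and 99.8 with 8CA and 82.4 and 87.6 under 8AA at 24 h. Its 8CA change of 0.15 ± 0.05 (edgeR adjusted p = 0.0285) was lost under 7 of 13 alternatives, leaving out any of the 4 libraries among them (adjusted p up to 0.174). PARP9 and DTX3L overlap on opposite strands, so their reads may not be fully separate.

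The effectors SAMD9 and SAMD9L, encoded side by side and known to restrain growth, rose in both lines. SAMD9L in MV4-11 was at 5.27 and 5.59 CPM untreated, 7.89 and 8.95 with 8CA and 16.1 and 14.1 under 8AA at 8 h. By 24 h it stood at 6.75 and 5.64 CPM untreated, 7.42 and 6.56 with 8CA and 11.4 and 11.6 under 8AA. 8AA was far above the other groups at both times, and 8CA overlapped the untreated pair at 24 h. With 8AA the log2 fold changes were 1.47 ± 0.12 and 0.89 ± 0.12 (edgeR adjusted p = 1.03e-06 and 7.22e-05), and with 8CA 0.63 ± 0.13 at 8 h (edgeR adjusted p = 0.0077, lost without untreated replicate A or 8CA replicate B, at most 0.0731) and 0.18 ± 0.13 at 24 h (edgeR adjusted p = 0.283). In KG-1a it was at 44.3 and 46.5, 43.4 and 50.5 and 60.4 and 57.8 CPM at 8 h for untreated, 8CA and 8AA. The 24 h values were 50.6 and 50.1, 61.6 and 67.6 and 71.6 and 80.6 CPM. 8AA was called at both times (0.38 and 0.59) and 8CA at 24 h (0.36), with edgeR adjusted p = 0.00146, 9.37e-06 and 0.00128.

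SAMD9 in MV4-11 was at 43.3 and 47.7 CPM untreated, 56.97 and 57.1 with 8CA and 67.1 and 61.4 under 8AA at 8 h, and at 65.02 and 60.4, 80.5 and 76.8 and 72.6 and 70.2 CPM at 24 h. SAMD9, STAT2 and TRIM22 were the 3 members called higher in all 4 MV4-11 comparisons, and no member was so in KG-1a. The SAMD9 log2 fold changes ran from 0.19 (8AA at 24 h) to 0.50 (8AA at 8 h). The lowest of them (edgeR adjusted p = 0.0309) was lost with DESeq2 and without untreated replicate B or either 8AA replicate (adjusted p up to 0.291), and the 8CA call at 8 h (edgeR adjusted p = 0.00527) was lost without untreated replicate A (0.0826). KG-1a values at 24 h were 73.6 and 71.6 CPM untreated, 107 and 105 with 8CA and 111 and 123 under 8AA, and at 8 h 63.1 and 65.02, 69.4 and 71.7 and 86.004 and 85.1. Both drugs were called there at 24 h (0.55 ± 0.05 and 0.69 ± 0.05, edgeR adjusted p = 1.16e-06 and 6.49e-08) and 8AA at 8 h (0.42 ± 0.06, edgeR adjusted p = 3.81e-05). TRIM22, a ubiquitin ligase that restricts viruses, is named after its values were seen: in MV4-11 its log2 fold changes were 0.24 to 0.33, and in KG-1a it was called with 8AA at both times (0.28 and 0.47) and not with 8CA (-0.01 and -0.04). Its row overlaps that of TRIM5 on the opposite strand.

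RSAD2 rose with 8AA in both lines, from very different levels. In MV4-11 it held 17 and 19 reads untreated, 25 and 26 with 8CA and 55 and 43 under 8AA at 8 h, which is 0.853 and 0.878, 1.11 and 1.31 and 2.702 and 1.77 CPM. The 24 h level was 1.22 and 0.813 CPM untreated, 1.56 and 1.77 with 8CA and 1.99 and 2.65 under 8AA. Every treated library lay above the untreated ones of its time, and only 8AA was called (1.34 ± 0.30 and 1.19 ± 0.28, edgeR adjusted p = 0.00302 and 0.00512), at 24 h not without replicate B of either group (edgeR adjusted p = 0.0774 at most). In KG-1a it was at 259 and 269 CPM untreated, 239.9 and 251 with 8CA and 298 and 293 under 8AA at 8 h. At 24 h it was at 235 and 226, 238 and 244 and 274 and 279.5 CPM. The 8AA pair was highest at both times, by 0.16 ± 0.04 and 0.26 ± 0.04 on the log2 scale (edgeR adjusted p = 0.0098 and 0.000125), the 8 h call being lost without untreated replicate A or 8AA replicate A (edgeR adjusted p = 0.0771 at most). CMPK2, chosen for mention after its values were seen, did not follow its neighbour: in KG-1a at 24 h it was at 139.6 and 143 CPM untreated, 95.4 and 94.6 with 8CA and 108 and 107 under 8AA, lower with both drugs (-0.57 ± 0.04 and -0.39 ± 0.04, edgeR adjusted p = 8.42e-08 and 2.63e-06), and in MV4-11 it was not called.

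XAF1, a pro-apoptotic partner of the inhibitor of apoptosis XIAP, separated the drugs at 24 h in both lines. MV4-11 values at 24 h were 69.2 and 70.4 CPM untreated, 92.3 and 88.7 with 8CA and 56.5 and 53.9 under 8AA. KG-1a values at 24 h were 24.9 and 24.7 CPM untreated, 57.4 and 54.9 with 8CA and 25.01 and 30.6 under 8AA. The 8CA pair was the highest in each line, while 8AA lay below the untreated pair in MV4-11 and a little above it in KG-1a. With 8CA the log2 fold changes were 0.37 ± 0.05 in MV4-11 and 1.18 ± 0.08 in KG-1a (edgeR adjusted p = 3.47e-05 and 2.5e-08), and with 8AA -0.34 ± 0.05 and 0.16 ± 0.09 (edgeR adjusted p = 0.000243 and 0.137). The KG-1a value with 8AA was called higher when scaled by library size or the upper quartile (log2 fold change 0.25 and 0.23) and without 8AA replicate A (0.30). At 8 h XAF1 was at 54.4 and 58.7, 57.7 and 59.3 and 53.7 and 53.2 CPM in MV4-11 and 20.2 and 20.2, 24.7 and 25.7 and 21.3 and 22.8 CPM in KG-1a, with no call. EPSTI1 was called in KG-1a with both drugs at 24 h (0.36 and 0.37). SP110 was called with 8AA at 8 h in MV4-11 (0.35) and with both drugs at 24 h in KG-1a (0.16 and 0.16). ISG20 was not called, nor was LGALS3BP, which had 4 to 16 reads per MV4-11 library.

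**Figure D3:**
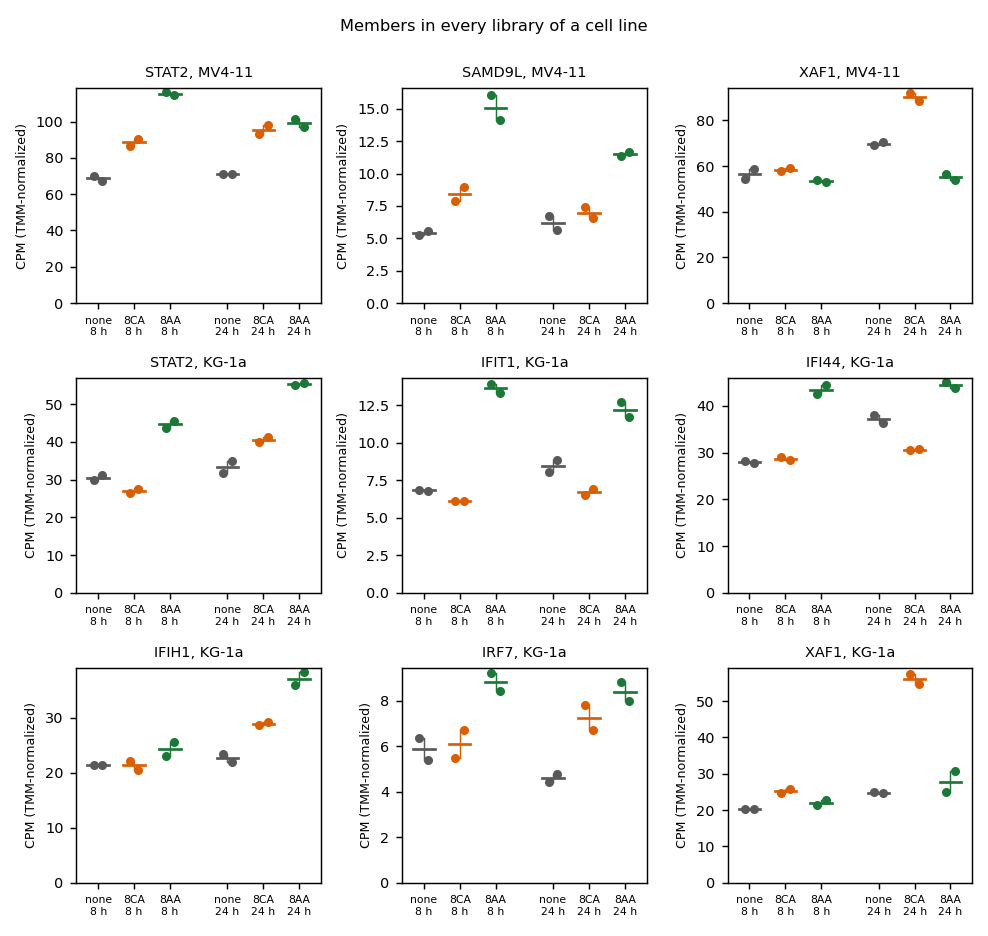
CPM of STAT2, SAMD9L and XAF1 in MV4-11 and of STAT2, IFIT1, IFI44, IFIH1, IRF7 and XAF1 in KG-1a in every library, by treatment and time, on axes that start at 0; points are libraries A and B, the thick bar their mean and the thin line their range. STAT2 and SAMD9L stand highest with 8AA in MV4-11 at 8 h, IFIT1 and IFI44 in KG-1a are high with 8AA and low with 8CA at 24 h, and XAF1 is highest with 8CA at 24 h in both lines.

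8AA and 8CA were compared directly at the same dose and time, in 4 comparisons (2 lines and 2 times), each adjusted over all genes of the line. At 8 h in MV4-11, 2 members were higher with 8AA and none lower (12 at an unadjusted p under 0.05), STAT2 and SAMD9L, where 6.66% of all genes were called, 2.96% higher and 3.7% lower. STAT2 differed by 0.38 ± 0.05 and SAMD9L by 0.84 ± 0.11 on the log2 scale (edgeR adjusted p = 0.000264 and 0.000369). At 24 h in MV4-11, 4 were higher with 8AA and 2 lower (all genes 21.2% called, 11.7% higher and 9.48% lower): BST2, IFITM2, IFITM3 and SAMD9L, and PARP14 and XAF1. STAT2 no longer differed beyond error, at 0.06 ± 0.05 with a 95% interval of -0.05 to 0.16, while SAMD9L still did (0.71 ± 0.12, edgeR adjusted p = 0.000517). Among the members not called, the 95% interval of TRIM22 was -0.11 to 0.08, and that of MX1, which had 4 to 24 reads per library, was -0.76 to 1.60.

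In KG-1a at 8 h, 11 members were higher with 8AA and 2 lower (all genes 30.4% called), and at 24 h 14 were higher and 7 lower (all genes 42% called, 20.3% higher). Without replicate A or B of the 8AA group at 24 h the latter counts were 12 higher with 7 lower and 15 higher with 6 lower. The largest 8 h difference was IFIT1, at 1.16 ± 0.10 (edgeR adjusted p = 1.06e-06), followed by STAT2 at 0.73 ± 0.06 and IFI44 at 0.60 ± 0.06 (edgeR adjusted p = 1.13e-06 and 4.42e-06). At 24 h IFIT1 differed by 0.86 ± 0.10, IFI44 by 0.54 ± 0.06 and STAT2 by 0.45 ± 0.06 (edgeR adjusted p = 7.24e-06, 4.17e-06 and 3.18e-05). In the other direction were XAF1 (-1.02 ± 0.08, edgeR adjusted p = 8.4e-08), DTX3L (-0.38 ± 0.04, edgeR adjusted p = 5.19e-06) and IFIT5 (-0.37 ± 0.08, edgeR adjusted p = 0.00191). XAF1 in MV4-11 at 24 h differed in the same direction (-0.71 ± 0.05, edgeR adjusted p = 1.82e-07). Members without a call included IFIT2 (95% interval -0.05 to 0.33), IFITM1 (-0.16 to 0.12), OAS3 (-0.19 to 0.13) and OAS1 (-0.43 to 0.73), the last being the widest of these.

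**Figure D4:**
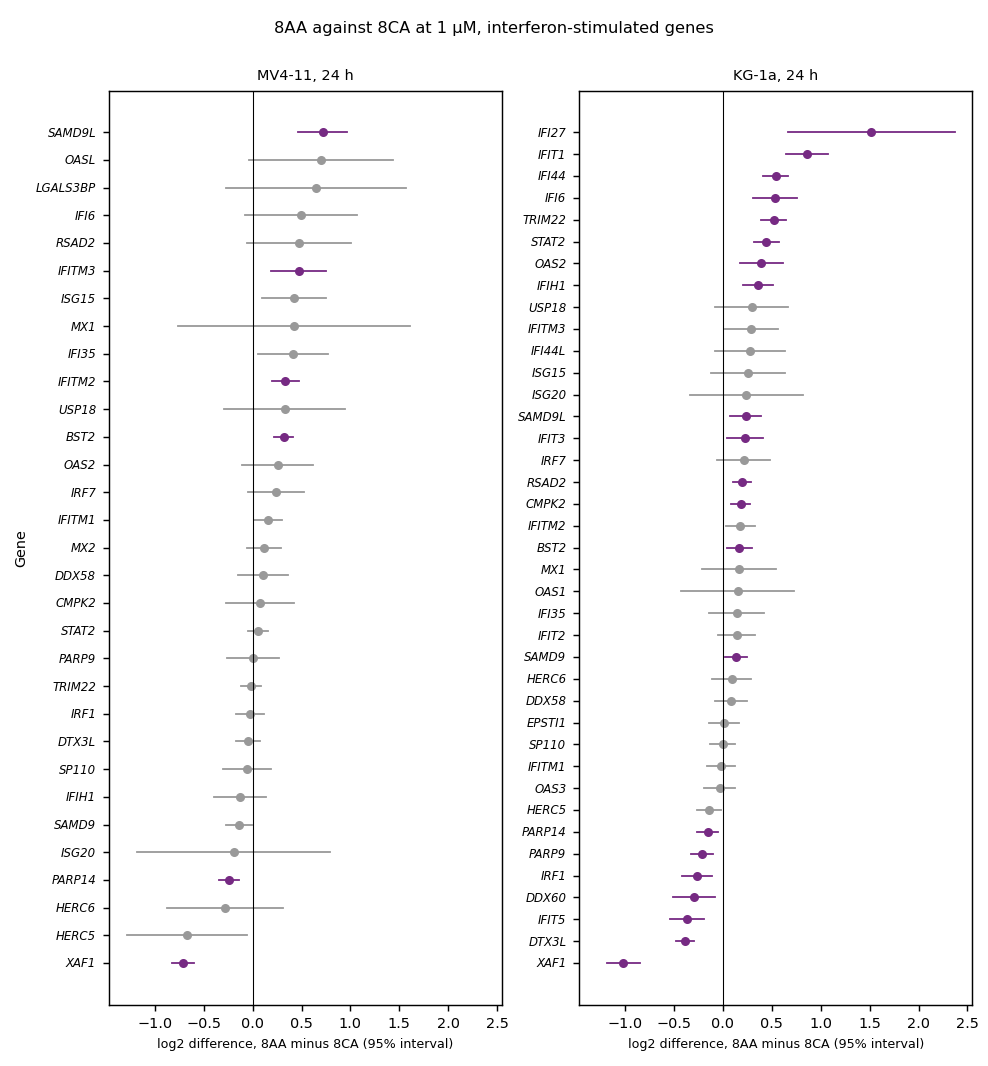
Difference between 8AA and 8CA at 24 h for every tested gene, as log2 values with 95% intervals, ordered by size within each line; purple marks a call and grey none. SAMD9L is highest and XAF1 lowest in MV4-11, and in KG-1a IFI27, IFIT1, IFI44 and STAT2 are among those to the right of 0 while XAF1, DTX3L and IFIT5 are at the left end.

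Some members differed between the untreated groups at 8 h and 24 h. Each time was its own pair of libraries, so time in culture cannot be told apart from other differences between the pairs. Between 8 h and 24 h, 5 of the 31 untreated MV4-11 members rose and none fell (5.54% of all genes called, 3.38% higher and 2.16% lower): MX2, IFITM1, PARP14, SAMD9 and XAF1, by 0.30 to 0.46 on the log2 scale. Fits without 1 of these MV4-11 libraries, which leave 1 in a group, called fewer of all genes, and some called fewer members. In KG-1a DDX58, IFIT3, IFI44 and IFITM1 rose and RSAD2 fell (4.45% of all genes called, 2.49% higher and 1.97% lower). Leaving out any 1 of these KG-1a libraries left few or no members called. All genes called fell there as well without untreated replicate A at 8 h. The change of a drug response from 8 h to 24 h was tested as an interaction. In signed log2 values, the 8CA response was more positive at 24 h than at 8 h for 3 MV4-11 members and more negative for 1 (16.3% of all genes called, 6.48% more positive and 9.83% more negative), and more positive for 10 KG-1a members and more negative for 4 (23.9%, 11.2% and 12.7%). The 8AA response was more positive at 24 h for 1 MV4-11 member and more negative for 1 (4.63%, 2.51% and 2.12%), and more positive for 3 KG-1a members and more negative for 4 (18.3%, 7.64% and 10.7%). Rises with 8AA that were smaller at 24 h included STAT2 in MV4-11 (-0.27 ± 0.07, edgeR adjusted p = 0.0397) and IFIT1 and IFI44 in KG-1a (-0.46 ± 0.14 and -0.38 ± 0.09, edgeR adjusted p = 0.0347 and 0.00632). The members that instead were called lower only at 24 h, or lower still, were BST2, CMPK2, IFI44 and IFITM2 with 8CA and CMPK2 and IFITM2 with 8AA in KG-1a, and BST2 with 8CA in MV4-11. More positive 8CA responses in KG-1a included XAF1 (0.86 ± 0.12, edgeR adjusted p = 0.000147) and STAT2 (0.47 ± 0.09, edgeR adjusted p = 0.00217). The 8AA counts changed in both lines when 1 library was left out. Such a fit has 1 library in a group, and in MV4-11 it also called fewer of all genes. The MV4-11 member calls were lost without either untreated replicate at either time, 8AA replicate A at 8 h or 8AA replicate B at 24 h. In KG-1a the 7 calls became 15 without 8AA replicate A at 24 h, 5 without 8AA replicate B at 24 h, 3 without untreated replicate A at 8 h and 4 without any of the other 5.

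The drug responses of the lines were compared in the fit of 24 libraries, for the 28 members tested in both. The 8CA response at 8 h differed for STAT2 alone (0.56 ± 0.08 higher in MV4-11, edgeR adjusted p = 0.000237; 1.15% of all genes called). The signed 8AA response at 8 h was more positive in MV4-11 for 9 members and more negative for none (11.1% of all genes called, 7.49% more positive): OAS2, IFITM3, IRF1, STAT2, PARP9, PARP14, DTX3L, RSAD2 and SAMD9L. Among them, IRF1 was called in neither line, and IFITM3 was not called in MV4-11 and was -0.40 in KG-1a. DTX3L was -0.14 in KG-1a, and the PARP14 8AA pair there lay below the untreated pair without a call. RSAD2 (1.22 ± 0.25, edgeR adjusted p = 0.00188) and SAMD9L (1.13 ± 0.15, edgeR adjusted p = 2.19e-05) differed most, each from a lower untreated level in MV4-11. At 24 h the 8CA response was more positive in MV4-11 for IFITM1, IFITM2 and TRIM22 and less positive for XAF1 (11.2% of all genes called), where IFITM2 was -0.08 and not called in MV4-11 and -0.53 in KG-1a. The 8AA response at 24 h was more positive in MV4-11 for 7, BST2, IFITM1, IFITM2, IFITM3, PARP9, DTX3L and RSAD2, and less positive or negative for 3, STAT2, SAMD9 and XAF1 (22.3% of all genes called). Of these, BST2 was 0.06 and not called in MV4-11 and -0.19 in KG-1a, and XAF1 was -0.34 in MV4-11 and 0.16 and not called in KG-1a. Over all 42 members in that fit, 10 were called for the 8AA response at 8 h and 10 at 24 h. Fewer were called, for example, without MV4-11 8AA replicate B or KG-1a untreated replicate A at either time. The same held without MV4-11 untreated replicate A at 8 h or untreated replicate B at 24 h. Such fits leave 1 library in a group, and whether the fall was particular to the members was not tested.

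The rest of the pathway was followed with a list of 89 further genes (ligands, receptors, kinases and STATs, nucleic acid sensors, double-stranded RNA responders, negative regulators and further targets), all in the table, of which 57 could be tested in MV4-11 and 58 in KG-1a. In MV4-11, 7 rose and 5 fell with 8CA at 8 h, 18 rose and 4 fell with 8AA at 8 h, 10 rose and 7 fell with 8CA at 24 h, and 14 rose and 4 fell with 8AA at 24 h. In KG-1a the counts in the same order were 0 and 1, 8 and 14, 12 and 10, and 14 and 14. The share of all genes called in these comparisons was 10.4%, 29.2%, 43.9% and 29.1% in MV4-11 and 0.881%, 34.7%, 47.4% and 51.9% in KG-1a.

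PNPT1, a mitochondrial RNA exonuclease, and PTPN11 (SHP2), a phosphatase of receptor signalling, fell with either drug in either line at 24 h, by the test. PNPT1 was at 123 and 119 CPM in untreated KG-1a, 81.7 and 85.1 with 8CA and 62.1 and 66.8 under 8AA, and at 117 and 110.2, 101 and 90.3 and 96.7 and 92.7 CPM in MV4-11. None of these treated libraries reached an untreated one. Its log2 fold changes were -0.54 ± 0.05 and -0.91 ± 0.05 in KG-1a and -0.25 ± 0.06 and -0.26 ± 0.06 in MV4-11 with 8CA and 8AA (edgeR adjusted p = 9.34e-07, 2.98e-09, 0.00212 and 0.0026), and those of PTPN11 ran from -0.44 to -0.13. TLR9, a sensor of unmethylated DNA, rose in KG-1a at 24 h, from 1.26 and 1.197 CPM untreated to 2.29 and 2.38 with 8CA and 3.67 and 3.004 under 8AA (0.92 ± 0.22 and 1.45 ± 0.21, edgeR adjusted p = 0.00313 and 2.66e-05). In MV4-11 at 24 h it was at 1.83 and 2.17, 0.957 and 1.94 and 1.59 and 2.04 CPM, with no call.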

How the data were processed

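RNA sequencing read counts per gene were used for 24 libraries, with groups taken from the sample labels. The deposited counts were made by the authors from their reads and are not normalized. The submitters' processing notes name Trimmomatic, STAR 2.6.0, HTSeq 0.11.1 and edgeR and the builds hg19 and hg38, with no role for each, so the build of the table and the use of strand in counting were not given in the sources used here. The libraries held 18633963 to 24520078 counted reads.

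Genes with few counts were removed with filterByExpr (minimum count 10), and the rest were scaled by TMM and tested with edgeR 4.0.16 quasi-likelihood tests (limma 3.58.1, R 4.3.3). P-values were adjusted across every tested gene after Benjamini and Hochberg, with a threshold of 0.05. One fit per line held its 12 libraries, and a fit of all 24 was used between lines. CPM values are TMM-scaled within a line, and RPKM values, also divided by gene length, come from all 24 libraries. Intervals are at 95%.

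The members and gene lists were chosen with earlier results of these data known. Members named with full values were, in each line, the 12 called members with the largest changes, the transcription factors IRF1, IRF7, IRF9 and STAT2, and members called in opposite directions. Other members whose values are given were chosen after their values were seen. On simulated counts for the 24 h comparison of 8AA with untreated, 70.4% of genes changed by 0.5 on the log2 scale and 83% of those changed by 1 were recovered in MV4-11, with 11 false calls of 163 over 12674 genes, and 71.4% and 91% in KG-1a, with 12 of 173 over 12553 genes. In each line the simulation changed 98 tested genes by 0.5 and 100 by 1, with the same spread per gene in every group. The real comparisons called 3726 genes in MV4-11 and 6600 in KG-1a, where the 8AA pair differed most, so these rates may not carry over. Alternatives were other scalings, other filters, DESeq2 1.42.0, fits with fewer or more libraries, a block for the replicate letter and leaving out each library. A block with crossed letters was added after seeing the data. Promoter windows are from RefSeq (GRCh38.p14), and read sharing was computed from words of 50 bases.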

Additional observations from a re-analysis of the deposited data

Results flagged for a closer look

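The results below were singled out because the test of a difference between times or lines itself passed the threshold (edgeR interaction terms, 40 differences among the members named by rule). Values are differences between log2 fold changes, with no cause tested. From 8 h to 24 h in MV4-11, the response to 8CA changed for IFITM1 (0.44), PARP14 (0.34) and XAF1 (0.33), and that to 8AA for IFITM1 (0.39) and STAT2 (-0.27). In KG-1a, the response to 8CA changed for IFIH1 (0.35), IFI44 (-0.32), IFITM2 (-0.39), IRF7 (0.60), STAT2 (0.47), PARP14 (0.36), DTX3L (0.34), SAMD9 (0.41) and XAF1 (0.86). The response to 8AA in KG-1a changed for IFIH1 (0.52), IFIT1 (-0.46), IFI44 (-0.38), IFITM2 (-0.30), PARP14 (0.29) and SAMD9 (0.27).

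Between the lines, written as MV4-11 minus KG-1a, the 8CA response at 8 h differed for STAT2 (0.56), and at 24 h for IFITM1 (0.51), IFITM2 (0.48) and XAF1 (-0.78). The 8AA response at 8 h differed for OAS2 (0.87), IRF1 (0.33), STAT2 (0.24), PARP9 (0.57), PARP14 (0.34), DTX3L (0.40), RSAD2 (1.22) and SAMD9L (1.13). At 24 h the 8AA response differed for IFITM1 (0.69), IFITM2 (0.63), STAT2 (-0.23), PARP9 (0.41), DTX3L (0.22), RSAD2 (0.94), SAMD9 (-0.48) and XAF1 (-0.48).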

How the results depend on the processing

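Counts of members called stayed within 1.5 times the main count in every comparison under DESeq2 size factors and upper-quartile scaling (23 of 23 each). No named value that was called in the main or the alternative fit changed direction between them. Of the 74 calls on named members, 52 kept their side of the threshold under every alternative and 22 were lost under at least 1. For 8CA at 8 h in MV4-11 (4 called) the count was 9 with library size only, 7 with no low-count filter and 8 with all 24 libraries, and in KG-1a (1 called) it was 3 with no filter and 2 with only the libraries compared. For 8AA against 8CA at 8 h, no filter gave 6 in MV4-11 (2 called) and only the libraries compared gave 24 in KG-1a (13 called), and at 24 h in KG-1a (21 called) 12. For the change of the 8AA response with time in MV4-11 (2 called) the count was 4 with no filter, 0 with DESeq2 and 1 with only the libraries compared, and in KG-1a (7 called) it was 4 with only the libraries compared and 4 with all 24. DESeq2 gave 9 for the 8CA response with time in KG-1a (14 called), no filter gave 2 for the 8CA difference between lines at 8 h (1 called), and at least 10 counts in every library left 23 for the untreated lines (41 called). The number of all genes called moved as well where it was counted. It was not counted for fits with only the libraries compared, nor for comparisons within a line fitted with all 24 libraries. Whether the member counts of those fits moved apart from all genes was not tested. With no filter the number of all genes called was 1748 for 8CA at 8 h in MV4-11 (1325 in the main fit) and 272 in KG-1a (112). For 8AA against 8CA at 8 h in MV4-11 it was 1109 (853). With DESeq2 it was 390 for the 8AA response with time in MV4-11 (593) and 2217 for the 8CA response with time in KG-1a (3036). The causes were not tested, except that the filter of at least 10 counts in every library leaves fewer members to test.

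Leaving out 1 library gave 2 to 4 for 8CA at 8 h in MV4-11 and 0 in KG-1a, 0 to 2 and 3 to 15 for the 8AA response with time in MV4-11 and KG-1a, 8 to 13 for the 8CA response with time in KG-1a, and 3 to 4 and 0 to 1 for untreated cells over time. It gave 1 to 2 for the 8CA difference between lines at 8 h, and 4 to 10 for the 8AA difference at 8 h and at 24 h.

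With the replicate block (letters A and B as a term), 9 members were called for 8CA at 8 h in MV4-11, 4 for 8AA against 8CA at 8 h and 5 for the 8AA response with time in MV4-11, and 2 for the 8CA difference between lines at 8 h. The other 19 counts stayed within 1.5 times. Of all genes, the block called 1976, 1369, 1123 and 258 in these comparisons in the same order, against 1325, 853, 593 and 162 without it. Differences between letters A and B correlated at -0.16 to 0.27 between treated and untreated groups, and no label says that the letters mark a shared culture. Crossing the letters for 8AA at 24 h in KG-1a, added after seeing the data, gave 18 higher and 5 lower. With 2 libraries a group, genes with few reads such as IFI27 and MX1 had wide intervals.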
